A study of Homo sapiens with 6 samples.

Results

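Eph receptors and ephrins were followed through 6 bulk RNA libraries of a human colon cell line with and without depletion of APC. The members are 10 of the 24462 gene symbols in the count files, chosen by their symbols: the receptor genes EPHA2, EPHA4, EPHB2, EPHB3 and EPHB4 and the ligand genes EFNA1, EFNA4, EFNA5, EFNB1 and EFNB2. Each member has 1 entry per file. Levels are given as CPM, the counts of a gene per 1000000 counts of its own file, and are compared between libraries of 1 gene, not between genes.

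3 libraries came from 1CT, labelled genotype WT, and 3 from 1CT-A, labelled APC KD. 1CT is a human colonic epithelial cell (HCEC) line immortalized with CDK4 and hTERT, and 1CT-A is its wild type APC depleted version, obtained from another laboratory. Both were untreated and shared a medium of DMEM and M199 with EGF, hydrocortisone, insulin, selenite, transferrin and 2% FBS. The sources used here do not say whether 1CT-A is 1 clone, whether the bulk 1CT cells carried a control vector, or whether libraries of a line came from separate cultures, so p-values measure only the spread between these libraries, which may be technical. Fewer cells of a type and less RNA per cell cannot be told apart in bulk RNA.

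The libraries held 7788679 to 8452258 counts in 1CT and 11158108 to 12602988 in 1CT-A, so that 3 counts, taken as the detection limit, were worth 0.355 to 0.385 CPM and 0.238 to 0.269 CPM. APC, the depleted gene, had 46.6 ± 2.75 CPM in 1CT and 31.9 ± 2.21 CPM in 1CT-A (SD, n = 3), a fitted log2 difference of -0.58 (edgeR, adjusted p = 1.76e-04), which matches the labels. Few markers of the colon epithelial identity in the labels were detected in every library. Of 8 epithelial markers CLDN7 and KRT18 were, at 196 to 308 and 36 to 109 counts, and KRT19 was detected in 1CT with 20 to 34 counts. KRT8 had 4, 4 and 14 counts in 1CT and 0, 2 and 8 in 1CT-A. CDH1 had 4, 3 and 3 counts in 1CT and 0, 0 and 3 in 1CT-A. CLDN4 had at most 7 counts. EPCAM and CLDN3 were at 0 in all 6 libraries. All 8 markers of differentiated or stem colon epithelium stayed under 3 counts in every library, with CDX1, VIL1, MUC2, CA1, FABP1 and GPA33 at 0. All 9 mesenchymal markers were detected in every library, and their summed level ran from 4711 to 5755 CPM in the 1CT libraries and from 4382 to 4696 CPM in those of 1CT-A. The cells are therefore called by their line names.

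Eph receptors form the largest family of receptor tyrosine kinases, and their ligands, the ephrins, are themselves held at the cell surface, so signals pass between touching cells in both directions. A-class receptors mainly bind ephrin-A ligands, which hang on a lipid anchor, and B-class receptors mainly bind ephrin-B ligands, which cross the membrane and end in a PDZ-binding tail. In the intestinal crypt, EPHB2 and EPHB3 are known targets of β-catenin and TCF at the crypt base, while ephrin-B ligands mark cells nearer the lumen, and the opposed gradients keep the cell layers in order. APC holds β-catenin down, which is why the family is read here across APC depletion.

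4 members passed the test of 1CT-A against 1CT, and all 4 belonged to the B class. EPHB4 was higher in 1CT-A, by 1.58-fold. EPHB2, EFNB1 and EFNB2 were lower, by 1.72-fold, 2.04-fold and 4.29-fold. EFNB2 entered the test only through its 1CT libraries, which fixed its direction, so its call adds little to this count. None of the 4 tested A-class members passed. Over all family genes, 4 of 6 tested B-class genes and 1 of 6 tested A-class genes passed. The A-class gene was EPHA5, not a member, and EPHB3 and EPHB6 of the B class did not pass. So few genes say little about a difference between the classes. Of the 10 members, 9 were tested, 5 of these did not pass and EFNA1 was too low to test. Across all 12514 genes tested, 51.0% passed at an adjusted p under 0.05 (edgeR's quasi-likelihood test), 25.0% higher and 26.0% lower in 1CT-A, so the share of members that passed is near the background. The median log2 fold change was -0.36 over the 9 tested members and -0.01 over all genes tested.

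The stretches before the starts of the 4 members that passed are shown because these B-class genes moved in opposite directions. EPHB2 among them is a known TCF target. The stretches are the 250 bases upstream of each RefSeq start on GRCh38.p14, 5′ to 3′ on the strand of the gene. GC-boxes, GGGCGG on either strand, are in capitals. The windows are chr1:22710588-22710837 on the plus strand for EPHB2, chr7:100827524-100827773 on the minus strand for EPHB4, chrX:68828771-68829020 on the plus strand for EFNB1 and chr13:106535663-106535912 on the minus strand for EFNB2.
EPHB2: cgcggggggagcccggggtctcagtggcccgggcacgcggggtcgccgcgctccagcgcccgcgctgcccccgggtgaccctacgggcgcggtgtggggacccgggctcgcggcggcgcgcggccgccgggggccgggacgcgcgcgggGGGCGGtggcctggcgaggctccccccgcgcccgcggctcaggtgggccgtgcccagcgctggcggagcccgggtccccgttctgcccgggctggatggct
EPHB4: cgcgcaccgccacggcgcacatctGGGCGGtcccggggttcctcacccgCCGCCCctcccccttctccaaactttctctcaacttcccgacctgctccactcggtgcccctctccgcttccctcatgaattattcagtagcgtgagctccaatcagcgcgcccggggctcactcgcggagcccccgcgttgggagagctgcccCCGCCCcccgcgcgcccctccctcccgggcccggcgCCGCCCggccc
EFNB1: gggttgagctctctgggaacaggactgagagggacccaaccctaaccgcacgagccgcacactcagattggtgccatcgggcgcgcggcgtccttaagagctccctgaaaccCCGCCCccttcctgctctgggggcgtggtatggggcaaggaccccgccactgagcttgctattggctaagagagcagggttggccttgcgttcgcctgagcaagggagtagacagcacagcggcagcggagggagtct
EFNB2: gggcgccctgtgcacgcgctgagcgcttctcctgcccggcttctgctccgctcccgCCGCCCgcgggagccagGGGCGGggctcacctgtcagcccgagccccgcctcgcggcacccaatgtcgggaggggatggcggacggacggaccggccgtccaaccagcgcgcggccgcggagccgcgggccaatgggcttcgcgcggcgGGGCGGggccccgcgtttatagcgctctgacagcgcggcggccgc
The EPHB2 window, that of a gene with 2 RefSeq windows, has 84.8% G and C and 1 GC-box. The EPHB4 window has 72.8% and 4 GC-boxes, the EFNB1 window 63.6% and 1, and the EFNB2 window 78.4% and 3. The median over all 35116 RefSeq windows of this length is 58.0%. All 10 members have a window, and 10 of 10 hold a GC-box against 42.6% of all windows. GC-boxes are not particular to the members, since windows of barely counted family genes such as EPHA8 and EFNA2 hold them too, while that of EPHA3 does not. The member windows have 43.2% to 84.8% G and C, and the part of this content in the matches was not tested. The TCF/LEF motif, searched on both strands as AACAAAG or ATCAAAG or TACAAAG or TTCAAAG, is in 0 of the 10 windows and in 4199 of all 35116. The E-box CACGTG is in 0 of the 10 and in 6.34% of all. These matches describe letters in the windows shown, and TCF sites are often far from a start.

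Among the B-class receptors, EPHB2 and EPHB4 moved in opposite directions and EPHB3 did not pass the test. EPHB2, a receptor that sorts cells along the crypt, lies on chr1:22710839-22921500 in GRCh38 on the plus strand. It had 35.4, 43.5 and 32.9 CPM in the 1CT libraries and 18.7, 24.4 and 23.6 CPM in the 1CT-A libraries, in the order of replicates 1 to 3. The lowest 1CT library stood above the highest 1CT-A library. The log2 fold change was -0.78 ± 0.13 (SE), with a 95% confidence interval from -1.05 to -0.51 (edgeR, adjusted p = 1.97e-04). The exact permutation test of the CPM values gave p = 0.1, the smallest that 3 libraries against 3 allow.

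EPHB4, the receptor that pairs with ephrin-B2 in the separation of arteries and veins, lies on chr7:100802565-100827523 on the minus strand. Its levels were 46.7, 49.7 and 41.3 CPM in 1CT and 77.3, 70.7 and 75.2 CPM in 1CT-A. All 3 1CT-A libraries were above all 3 of 1CT, and replicates of a line were close, with means of 45.9 ± 4.26 and 74.4 ± 3.42 CPM (SD, n = 3). The log2 fold change was 0.66 ± 0.09 (SE), with an interval from 0.47 to 0.85 (edgeR, adjusted p = 4.45e-05). SLC12A9 overlaps EPHB4 on the other strand, but not over the last 1000 bases of EPHB4, where 3′ libraries place their reads.

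EPHB3, the other crypt receptor, on chr3:184561785-184582408, had few counts. It had 6, 6 and 12 counts in 1CT and 12, 31 and 20 in 1CT-A, or 0.710, 0.724 and 1.54 CPM against 1.08, 2.72 and 1.59 CPM. The lines overlapped, since 1CT replicate 3 was above 1CT-A replicate 1. The log2 fold change was 0.82 ± 0.44 (SE), and its interval, from -0.14 to 1.78, holds both no difference and a rise of several fold (edgeR, adjusted p = 0.139). EPHB3 met the filter on low counts, 1.02 CPM in 3 libraries, mainly through 1CT-A, where all 3 libraries reached it against 1 of 1CT. Single libraries moved it both ways, to 1.28 without 1CT replicate 3 (edgeR, adjusted p = 0.0456) and to 0.42 without 1CT-A replicate 2 (edgeR, adjusted p = 0.495).

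**Figure D1:**
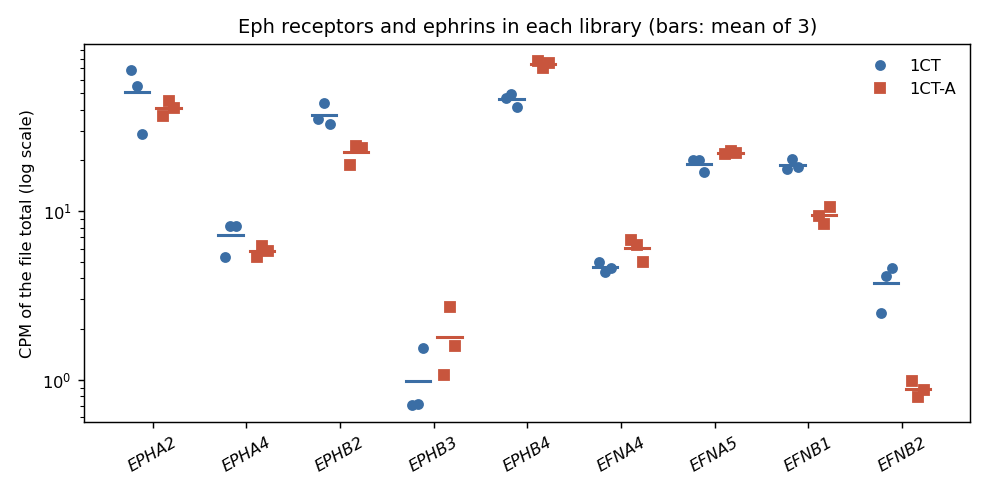
Level of each detected member in CPM of the file total, on a log scale, with 1 point per library (circles 1CT, squares 1CT-A) and bars at the mean of 3 libraries. The points of EPHB2, EFNB1 and EFNB2 are lower in all 1CT-A libraries, those of EPHB4 are higher, and those of EPHA2, EPHA4 and EPHB3 overlap. EFNA1 is not drawn, since it had 1 count in all 6 libraries together.

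EFNB1 and EFNB2, the B-class ligands that could be tested, were called lower in 1CT-A, as were 26.0% of all genes tested. The direction of EFNB2 was fixed by the filter, as described below. EFNB1, a transmembrane ephrin encoded on the X chromosome at chrX:68829021-68842160, had 17.9, 20.3 and 18.4 CPM in 1CT and 9.32, 8.43 and 10.6 CPM in 1CT-A. The lines were well apart, with means of 18.8 ± 1.28 and 9.46 ± 1.11 CPM (SD, n = 3). The fitted difference was -1.03 ± 0.13 on the log2 scale (SE), with an interval from -1.32 to -0.74 (edgeR, adjusted p = 3.60e-05), the smallest p of the members.

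EFNB2, the ephrin of arteries and a ligand of EPHB4, lies on chr13:106489745-106535662 on the minus strand and had the largest fitted fold among the members that passed. Its counts were 21, 34 and 36 in 1CT and 11, 9 and 11 in 1CT-A, which are 2.48, 4.11 and 4.62 CPM against 0.986, 0.790 and 0.873 CPM. Every 1CT-A library was below every 1CT library although it was sequenced more deeply, by a factor of 1.43 on average. Its fitted log2 difference was -2.10 ± 0.33 (SE), with an interval from -2.82 to -1.39 (edgeR, adjusted p = 1.63e-04). EFNB2 met the filter on low counts only through the 3 libraries of 1CT, and a gene that enters in this way is bound to be higher there, so its counts carry the result. The summed level of 378 olfactory receptor genes was also higher in 1CT, at 3.38 to 4.50 CPM against 1.40 to 1.67 CPM. The part of this difference in the values of low genes was not tested. EFNB1 and EFNB2 also passed the thresholds of the study's methods, an unadjusted p under 0.01 with a fold of 2 or more, as did 13.4% of all genes tested.

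The A-class receptors among the members, EPHA2 and EPHA4, did not pass the test. EPHA2, an epithelial receptor for ephrin-A1 often raised in tumours, on chr1:16124337-16156069, had 68.3, 55.3 and 28.8 CPM in 1CT and 36.6, 44.7 and 41.1 CPM in 1CT-A. The spread lay within 1CT, where replicate 3 was below all libraries of 1CT-A and replicates 1 and 2 were above them. The log2 fold change was -0.36 ± 0.21 (SE), with an interval from -0.81 to 0.10 (edgeR, adjusted p = 0.174). Single 1CT libraries moved the value both ways, to -0.62 without replicate 3 (edgeR, adjusted p = 6.76e-05) and to -0.086 without replicate 1 (edgeR, adjusted p = 0.745). With all libraries and no filter on low counts it was -0.31 and passed (edgeR, adjusted p = 0.00784).

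EPHA4, a receptor that binds ephrins of both classes, on chr2:221418027-221574202, had 5.32, 8.21 and 8.22 CPM in 1CT and 5.38, 6.23 and 5.79 CPM in 1CT-A. 1CT replicate 1 was as low as the 1CT-A libraries and the other two were above them. Its log2 fold change was -0.36 ± 0.20 (SE), with an interval from -0.79 to 0.07 (edgeR, adjusted p = 0.152). It ran from -0.54 without 1CT replicate 1 (edgeR, adjusted p = 0.0335) to -0.24 without 1CT replicate 3 (edgeR, adjusted p = 0.374).

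The ephrin-A ligands differed little. EFNA5, a ligand known from axon guidance, on chr5:107376894-107670937, had 20.0, 20.2 and 16.9 CPM in 1CT and 21.7, 22.6 and 22.0 CPM in 1CT-A. The 1CT-A libraries were all above those of 1CT, by a small margin, with a log2 fold change of 0.18 ± 0.11 (SE) and an interval from -0.06 to 0.41 (edgeR, adjusted p = 0.198).

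EFNA4, on chr1:155063737-155069553, had 4.97, 4.35 and 4.62 CPM in 1CT and 6.72, 6.32 and 5.00 CPM in 1CT-A. The lines did not overlap, but 1CT-A replicate 3 was close to 1CT replicate 1. The log2 fold change was 0.33 ± 0.20 (SE), with an interval from -0.10 to 0.76 (edgeR, adjusted p = 0.186). The readthrough gene EFNA4-EFNA3 on the same strand spans the 3′ end of EFNA4 and runs on through EFNA3, which had at most 3 counts in every library.

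EFNA1, the main ligand of EPHA2 in epithelia, lies on chr1:155127876-155134899 and had 1 count in 1CT replicate 1 and 0 in the other 5 libraries. This is under the detection limit in both lines, so no fold is given. The levels of the 10 members did not overlap between the lines in 6 genes, the 4 that passed and EFNA4 and EFNA5, while 59.7% of all genes tested did not overlap.

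**Figure D2:**
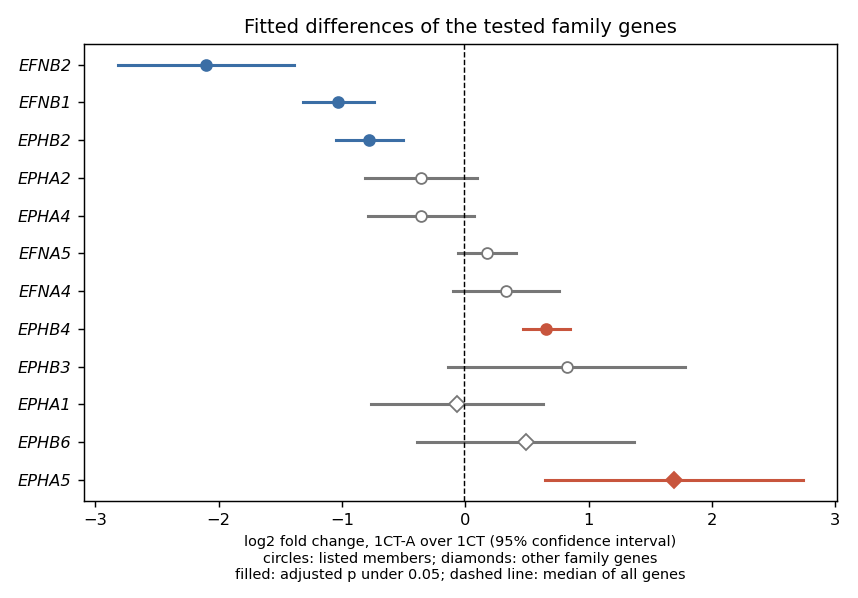
Fitted log2 fold change of 1CT-A over 1CT with its 95% confidence interval for the 9 tested members (circles) and 3 other family genes (diamonds), filled where the edgeR adjusted p is under 0.05. EFNB2, EFNB1 and EPHB2 lie left of the median of all genes and EPHB4 and EPHA5 right of it, while the intervals of the others include 0.

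Ratios of counts within a library do not depend on its depth or scaling. The ratio of EPHB2 to EPHB4 counts was 0.757, 0.874 and 0.795 in 1CT and 0.242, 0.345 and 0.314 in 1CT-A, 2.72-fold lower, with no overlap between the lines. The change of this ratio joins the lower EPHB2 and the higher EPHB4. The exact permutation p was 0.1 for this ratio, the smallest possible. The ratio of EFNB2 to EFNB1 was 0.139, 0.202 and 0.252 in 1CT and 0.106, 0.0938 and 0.0821 in 1CT-A, 2.06-fold lower, so that EFNB2 was lower also relative to the other ligand of its class (exact permutation p = 0.1). The ratio of EPHB3 to EPHB2, the crypt receptors, was 0.0201, 0.0167 and 0.0469 in 1CT and 0.0574, 0.112 and 0.0671 in 1CT-A, 3.01-fold higher with no overlap (exact permutation p = 0.1). EPHB3 has as few as 6 counts in these ratios. The ratio of EFNA5 to EFNB1, a ligand of each class, went from 1.01 ± 0.099 in 1CT to 2.36 ± 0.312 in 1CT-A (SD, n = 3, exact permutation p = 0.1). That of EPHA4 to EPHA2 overlapped, at 0.078, 0.149 and 0.286 against 0.147, 0.140 and 0.141 (exact permutation p = 0.7). These 5 ratios were chosen with the results of the members known, so they describe the libraries and add no independent support.

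**Figure D3:**
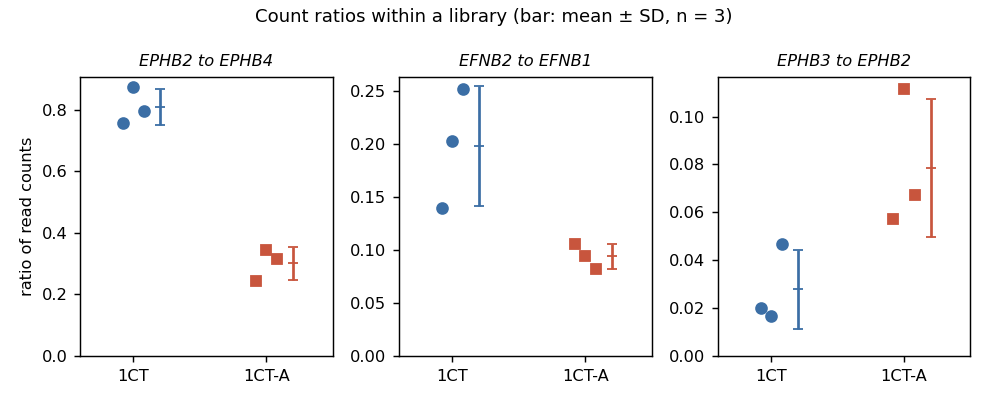
Ratio of read counts of 2 members within each library, from 0 upward, with a point per library and the mean ± SD of 3 beside it (circles 1CT, squares 1CT-A). EPHB2 to EPHB4 is 0.809 ± 0.060 in 1CT and 0.301 ± 0.053 in 1CT-A, EFNB2 to EFNB1 is also lower in 1CT-A and EPHB3 to EPHB2 is higher, without overlap in any panel.

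The classes were also summed over all family genes in the files, as a description with no test. The 5 EphB receptor genes had 85.6 ± 8.80 CPM in 1CT and 100.1 ± 1.59 CPM in 1CT-A (SD, n = 3), and the share of these counts on EPHB4 went from 53.7% to 74.3%. The 3 ephrin-B genes had 22.9 ± 1.87 CPM and 10.6 ± 1.01 CPM, with 82.5% and 89.1% of the counts on EFNB1. The ephrin-B sums did not overlap between the lines, at 20.8 to 24.5 CPM for 1CT against 9.57 to 11.6 CPM for 1CT-A. The 9 EphA receptor genes had 61.0 ± 18.9 and 51.5 ± 4.45 CPM, and EPHA2 held 83.5% and 79.3% of them. The 5 ephrin-A genes had 24.0 ± 1.79 and 28.3 ± 1.05 CPM, of which EFNA5 held 79.3% and 78.2%. Such shares describe reads near 3′ ends and not numbers of protein.

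12 further family genes are in the files, and 9 of them had at most 5 counts in every library. EPHA8 was at 0 in all libraries, EPHA6 and EPHA10 had at most 1 count, EPHA3 had 1, 3 and 1 counts in 1CT and 5, 5 and 5 in 1CT-A, and EFNB3, the remaining ephrin-B, had at most 5. EPHA7, EPHB1, EFNA2 and EFNA3 had at most 3 counts. EPHA5, a receptor of the nervous system, had 7, 13 and 1 counts in 1CT and 36, 40 and 24 in 1CT-A, which are 0.828, 1.57 and 0.128 CPM against 3.23, 3.51 and 1.90 CPM. It was higher by 3.24-fold, with a log2 fold change of 1.69 ± 0.48 (SE, edgeR, adjusted p = 0.0103), and met the filter with all 3 libraries of 1CT-A and 1 of 1CT. EPHB6, a receptor without kinase activity, had 11, 5 and 12 counts against 26, 14 and 18, with a log2 fold change of 0.49 ± 0.41 (SE, edgeR, adjusted p = 0.337). EPHA1 had 10, 14 and 15 counts against 18, 15 and 22, a log2 fold change of -0.07 ± 0.32 (SE, edgeR, adjusted p = 0.879), and its 3′ end overlaps ZYX on the other strand, so its counts are uncertain.

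The proteins that carry Eph and ephrin signals inward were read from a list of 40 partners. 34 were tested, of which 6 were higher and 11 lower in 1CT-A and 17 did not pass, with a median log2 fold change of -0.04. This is again near the background of 51.0%. CHN1, which encodes chimaerin 1, a Rac GTPase-activating protein that acts after EphA4 in axon guidance, went from 7.06 ± 0.281 to 48.5 ± 3.15 CPM (SD, n = 3), and its fitted log2 difference was 2.74 ± 0.11 (SE, edgeR, adjusted p = 1.37e-09). TIAM1, a Rac activator that binds EphA2 and ephrin-B1, had 41, 59 and 66 counts in 1CT and 1, 1 and 0 in 1CT-A, and was at least 26.6-fold lower against 3 counts per library. TIAM1 entered the test only through 1CT, where it is high, and was under the detection limit in every 1CT-A library. RAC1 itself had 811 ± 14.4 and 795 ± 11.4 CPM, with a log2 fold change of -0.07 ± 0.06 (SE).

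With 51.0% of all genes tested passing, the small counts by role given here say little about the roles. Of the 6 kinases of the list, 1 was higher and 3 lower. ABL1 went from 73.1 to 108.7 CPM, a log2 fold change of 0.53 ± 0.08, while its close relative ABL2 went from 95.6 to 56.1 CPM, a log2 fold change of -0.81 ± 0.10 (SE, edgeR, adjusted p = 9.90e-05 and 1.48e-05). FYN, a kinase of the Src family, fell by 0.81 ± 0.12 on the log2 scale (SE, edgeR, adjusted p = 1.16e-04). Among 12 tested adaptors and phosphatases, 2 were higher and 3 lower. SHC1, an adaptor towards Ras, fell from 229 to 129 CPM, by 0.88 ± 0.07 on the log2 scale (SE, edgeR, adjusted p = 6.75e-07), and NCK1, an adaptor towards the actin skeleton, rose by 0.49 ± 0.14 (SE, edgeR, adjusted p = 0.0111). Of 4 tested proteins with PDZ domains that bind the tail of B-class members, 1 was higher and 2 lower. AFDN, listed in the files under its older symbol MLLT4, rose by 0.66 ± 0.15 and PICK1 fell by 0.88 ± 0.21 on the log2 scale (SE, edgeR, adjusted p = 2.27e-03 and 3.31e-03). Of the 3 proteases, ADAM10, which cuts ephrins from the surface, rose from 39.6 ± 7.19 to 63.1 ± 1.86 CPM (SD, n = 3), by 0.63 ± 0.11 on the log2 scale (SE, edgeR, adjusted p = 3.84e-04), and the other two did not pass.

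**Figure D4:**
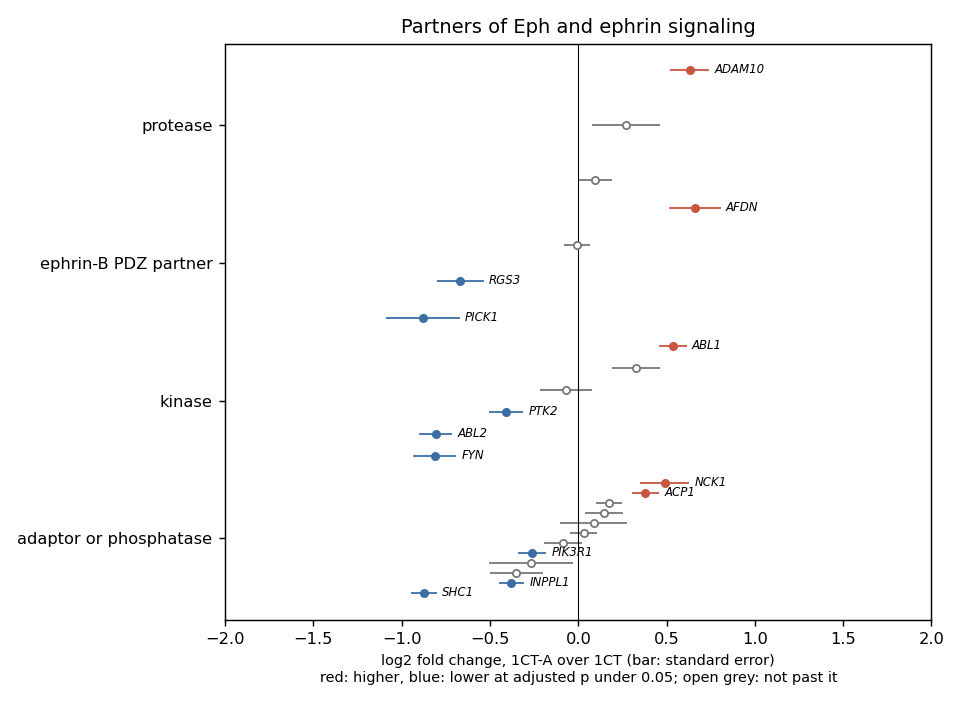
Fitted log2 fold change of 1CT-A over 1CT, with its standard error, for the tested partners that are kinases, adaptors or phosphatases, PDZ partners of ephrin-B, or proteases. Red points were higher and blue points lower at an edgeR adjusted p under 0.05, and open grey points did not pass. Every role but the protease group holds points on both sides that passed, and ABL1 and ABL2 lie on opposite sides.

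Other genes driven by Wnt and β-catenin were set beside EPHB2 and EPHB3. Of 14 listed targets 6 were tested, of which 3 were higher, 1 lower and 2 did not pass. Of all genes tested, 25.0% were higher and 26.0% lower, so so few targets say little as a set. LEF1, a partner of β-catenin on DNA and its target, went from 1.30 to 12.3 CPM, a log2 fold change of 3.18 ± 0.27 (SE, edgeR, adjusted p = 7.70e-07). MYC rose by 1.29 ± 0.19 and ZNRF3, a ligase that removes Wnt receptors, by 0.52 ± 0.15 (SE, edgeR, adjusted p = 1.19e-04 and 0.0110). CCND1, the cyclin D1 gene, fell by 1.96 ± 0.09 (SE, edgeR, adjusted p = 2.62e-09). AXIN2 was too low to test, with 1, 1 and 1 counts in 1CT and 9, 1 and 5 in 1CT-A. The crypt stem cell genes LGR5 and ASCL2, and SP5 and SOX9, had at most 2 counts in any library. Targets that passed thus lay in both directions, as did the genes tested as a whole. A difference between EPHB2 and EPHB3 beyond the ratio above was not tested.

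Some markers of several cell types differed between the lines, where 51.0% of all genes tested passed. The summed level of 8 epithelial markers ranged over 41.1 to 45.2 CPM in the 1CT libraries and 23.6 to 30.8 CPM in the 1CT-A libraries, and CLDN7 and KRT18 were lower (edgeR, adjusted p = 0.0225 and 8.82e-04). CLDN7, the highest of them, had 26.6 and 20.6 CPM, KRT18 had 11.2 and 5.06 CPM, and KRT19 had 3.33 ± 1.00 CPM in 1CT (SD, n = 3) and 0 counts in 1CT-A, and entered the test only through 1CT, so its lower call was fixed. Only 2 of the 8 had at least 3 counts in every library, and the CLDN7 levels of the lines overlapped. Among the endothelial markers, of interest because EPHB4 and EFNB2 work in vessels, CDH5 and TIE1 were at 0 in all libraries and KDR and VWF under 3 counts, while TEK had 4.38 and 1.60 CPM, and the sum ranged over 3.60 to 6.52 CPM in the 1CT libraries and 1.08 to 2.55 CPM in the 1CT-A libraries. Among the immune markers PTPRC and CD3E were at 0, CD68 was the highest, and the sum was 12.4 to 15.1 CPM and 8.97 to 10.4 CPM. TEK and CD68 made up most of the sums of their lists, so these sums describe single genes. Of the 9 mesenchymal markers, the ones at high level, 2 were higher, 4 lower and 3 did not pass. With 51.0% of all genes tested passing, this count says little about these markers. COL3A1 went from 47.8 to 253 CPM and DCN from 70.6 to 89.4 CPM, while COL1A1, PDGFRB, THY1 and VIM were lower. The part of the mesenchymal, epithelial and other markers in the lower values of EPHB2, EFNB1 and EFNB2 was not tested.

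The genes whose profile over the 6 libraries was most like that of a member were searched among 12513 tested genes by the Euclidean distance of centred log2 values. For EPHB4 they were ABHD2, KRR1 and RHOBTB3, at distances of 0.073, 0.0961 and 0.0991. For EFNB1 they were ZNF518B, PKI55 and EZH1, at 0.113, 0.136 and 0.149. No other family gene was among them, which says little, since only the 3 closest of 12513 genes were listed for each.

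**Figure D5:**
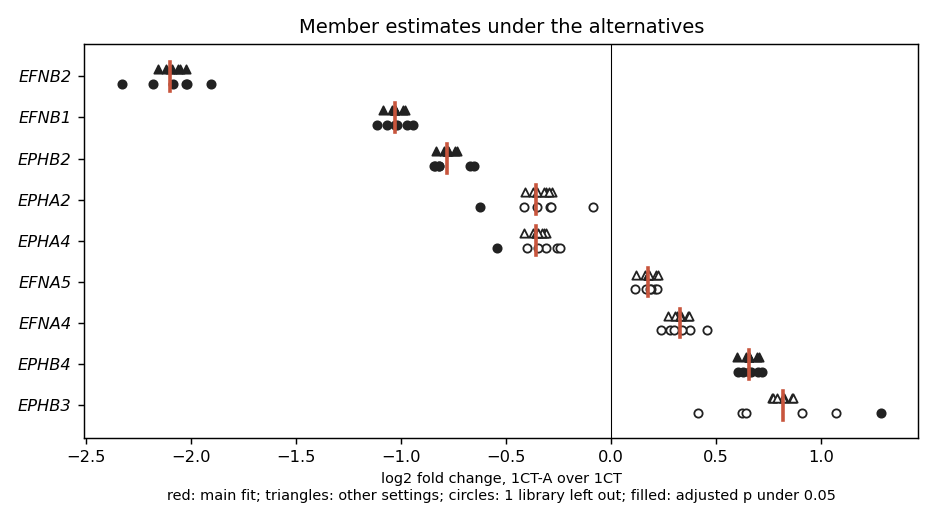
Log2 fold change of 1CT-A over 1CT of the 9 tested members under other settings (triangles) and with 1 library left out (circles), filled where the adjusted p is under 0.05, with a red line at the value reported. EFNB2, EFNB1, EPHB2 and EPHB4 stay filled and on 1 side of 0 throughout, while EPHA2, EPHA4 and EPHB3 are filled when a particular 1CT library is left out. EFNB2 entered the main fit only through its 1CT libraries, which fixed its direction.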

How the data were processed

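The deposited files, 1 for each library, hold raw counts of reads per gene symbol as the authors made them, neither normalized nor pooled, from QuantSeq 3′ libraries made of 500 ng of total RNA. The submitters' processing notes name Bowtie2, edgeR and hg19 without versions. The annotation, the counting tool and the use of strand are not given in the sources used here, so genes that overlap are uncertain. Coordinates come from GENCODE release 44 on GRCh38 and promoter windows from RefSeq on GRCh38.p14, and describe those annotations and not the authors' counting.

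Counts of 286 symbols entered repeatedly were summed, which touches no member. Counts from the 6 files were fitted with edgeR 4.0.16 in R 4.3.3: TMM factors (0.976 to 1.02), filterByExpr at its minimum of 10 counts, and a quasi-likelihood test of the line as the only term. P-values were adjusted by Benjamini-Hochberg over 12514 genes, with calls at an adjusted p under 0.05. CPM in the text are of the file total, without TMM. Exact permutation tests were two-sided. Totals of 7788679 to 12602988 counts set the precision, and a value was taken as detected from 3 counts, a limit that covers counting error only. Replicates differed by more than counting noise (chi-square per degree of freedom 3.11 to 9.00), so none is a copy of another. The scripts were tested on simulated data.

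The members and lists were chosen with earlier results of these data known. All members, family genes and APC are named, partners by the 5 largest called changes in each direction, Wnt targets by the 3 largest, and markers at 0 or highest. For the called-higher and called-lower members with the smallest p, the 3 tested genes with the closest profile are named. RAC1, AXIN2 and markers beyond this rule were named after their values were seen, and the upstream windows printed were also chosen then. Alternatives were DESeq2 1.42.0 and its size factors, library size only, upper-quartile scaling, omitting the filter, requiring 10 counts in each library, limma-voom (limma 3.58.1), a replicate block, an adjusted p of 0.01, per-gene tests on log2(CPM + 1) and log2(CPM + 0.1), and leaving out each library. The count of 1 role group of the partners is not reported here.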

Additional observations from a re-analysis of the deposited data

How the results depend on the processing

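EPHB2, EPHB4, EFNB1 and EFNB2 kept their direction and passed in every alternative fit with adjusted p-values that tested them. Their log2 fold changes in these fits ran from -0.84 to -0.65, 0.60 to 0.72, -1.12 to -0.94 and -2.33 to -1.91. The per-gene tests were read only against the thresholds of the study's methods, which EPHB2 and EPHB4 passed in neither. On log2(CPM + 1) EFNB1 did not pass them either, and the EFNB2 difference was -1.33. EFNB2 was not tested where at least 10 counts in every library were required. In the main fit it entered only through its 1CT libraries, which fixed its direction, and most alternatives kept that filter. Its steady direction under those therefore adds little. Without a filter EFNB2 was at -2.06. No result reversed. Leaving out 1 library gave -0.62 to -0.086 for EPHA2, -0.54 to -0.24 for EPHA4 and 0.42 to 1.28 for EPHB3, with the calls named above. Without a filter EPHA2 was -0.31 (edgeR, adjusted p = 0.00784). The members called higher numbered 1 to 2 with 1 library left out, 2 being EPHB4 and EPHB3 without 1CT replicate 3. The members called lower, 3 in the main fit, numbered 4 without a filter and 4 without 1CT replicate 1 or 1CT replicate 3. With at least 10 counts required in every library they numbered 2, since EFNB2 was not tested there. The members past the thresholds of the study's methods numbered 1 instead of 2 with scaling by library size only, without a filter, with 10 or more counts required in each library and with the per-gene test on log2(CPM + 1), and 1 to 2 with 1 library left out. 1 stood without 1CT replicate 2 and without 1CT-A replicate 2. EPHA5 was the 1 other family gene called higher, and 0 were called with at least 10 counts in every library or at an adjusted p under 0.01. The causes were not tested. Same-numbered libraries did not deviate together (r = -0.161, 0.220 and -0.139 over 8224 genes), so the numbers give no pairing. A fit with the replicate block called 6091 genes, 6000 of them among the 6388 called without it, and the same 4 members. Few counts limit EFNA1, EPHB3, EFNB2 and all 12 other family genes.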
